A study of Mus musculus with 2 samples.

Results

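The Mmp12 Gpnmb lipid-associated macrophages were 1534 of the 22084 cells that passed the quality filter in 2 single-cell libraries of the infarcted mouse heart, 1531 of them in the GFP-high library and 3 in the GFP-low library. They were chosen by measured values of the same cells. A cell counted as a macrophage of the rule when it had at least 30 unique molecular identifiers (UMIs) of C1qa, C1qb and C1qc per 10000 UMIs and fewer than 3 UMIs of the cycling genes Mki67, Top2a and Birc5, and 7185 cells did. Each of these got 4 scores, the log of the per-10000 sum of a few genes, standardised over these cells. The L score used Mmp12, Gpnmb and Atp6v0d2, the R score Cd163, Cbr2, Folr2 and Timd4, the M score H2-Aa, H2-Ab1 and H2-Eb1, and the G score Gdf15, Cxcr4 and Pla2g7. Members were the cells whose L score was the highest of the 4 and above 0.5. Cells led by another score above 0.5 formed the R class (1179 cells of the GFP-high library), the M class (1580 cells) and the G class (1404 cells), and 1443 cells had no such score.

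Both libraries came from mice of the genotype p16-2A-CreER;R26-mTmG, in which a Cre recombinase driven from the p16 locus and activated by tamoxifen switches the membrane-bound tomato protein of a cell, and of all cells it gives rise to, for membrane-bound GFP. All mice had a myocardial infarction, were given tamoxifen on day 5 and gave cells of the infarct zone on day 7, after cardiomyocytes had been spun out. The non-cardiomyocytes were sorted into a GFPhi and a GFPlo fraction, and each fraction gave 1 library. GFP therefore records activity of the p16 locus around the time of tamoxifen and not at harvest. How many mice each library holds is not stated, and no animal without infarction, without tamoxifen or without Cre was analysed here.

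Lipid-associated macrophages are a state that macrophages take where they clear lipid-rich debris, as in atheroma, obese fat and healing wounds. They load lipid through scavenger receptors, hydrolyse it in lysosomes and store it in droplets, and in mice their usual genes are Trem2, Cd9, Spp1, Gpnmb, Fabp5 and Lpl. Mmp12 encodes a secreted elastase of macrophages, Gpnmb a membrane glycoprotein of late endosomes and lysosomes, and Atp6v0d2 a subunit of the proton pump (V-ATPase) that acidifies lysosomes and the resorption space of osteoclasts.

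GFPhi held 10430 barcodes with 91343549 UMIs in all, and GFPlo held 12344 barcodes with 104855204 UMIs. With 1 library per fraction there is no replicate and no test. Intervals are exact 95% intervals, given in parentheses after a value, and cover counting error only. Of all barcodes, 94 occurred in both libraries, and 8 members had such a barcode.

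Members were a large class of GFPhi and nearly absent from GFPlo. They made up 15.1% of the kept cells of GFPhi (14.4–15.8) and 0.0251% of those of GFPlo (0.00517–0.0733). Among macrophages of the rule they were 21.5% in GFPhi (20.5–22.4, 1531 of 7137 cells) and 6.25% in GFPlo (1.31–17.2, 3 of 48 cells). GFPlo held so few macrophages of any kind that the makeup of its macrophages cannot be compared closely.

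The 3 GFPlo cells did not resemble each other in the genes that chose them. The first had 2730 UMIs, among them 2 of Gpnmb and none of Mmp12. The second had 5771 UMIs with 3 of Mmp12 and 4 of Gpnmb, and the third had 7163 UMIs with 29 of Mmp12 and none of Gpnmb. None had a UMI of Atp6v0d2, which with 3 counts as the limit of a count of 0 allows up to 192 CPM (a gene's UMIs relative to all UMIs of the cells summed) in them. None had a UMI of mGFP, Npy or Mfge8. All further values are of GFPhi.

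The lowest L scores inside the rule were 0.501 and 0.503, and the highest outside it, among cells led by L, were 0.496 and 0.494. The L score had a median of 1.37 and a maximum of 2.84 in members, and 169 members lay between 0.5 and 0.75. A further 310 cells were led by L at or under 0.5. Another 859 cells had an L score above 0.5 but a higher score of another kind, and 589 of these were led by G, 184 by M and 86 by R. The class is a range of a score with its thickest border toward the G class.

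Gpnmb was carried by nearly every member, while Mmp12 and Atp6v0d2 were carried by part of them. Only 32 of 1531 members had no Gpnmb UMI, while 795 had no Mmp12 UMI and 890 had no Atp6v0d2 UMI. Members were also deeper than the other classes, with a median of 9661 UMIs per cell against 6605 in the R class, 5898 in the M class and 6960 in the G class. Cells were therefore also thinned to 2000 UMIs, which left out 125 shallower members. At that depth 90.3% of 1406 members had a Gpnmb UMI (88.7–91.8), 33.7% a Mmp12 UMI (31.2–36.2) and 17.7% an Atp6v0d2 UMI (15.8–19.8). Unthinned, the shares were 97.9%, 48.1% and 41.9%.

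In cells of an endothelial gate, which should lack these genes, the thinned shares were 2.06% for Gpnmb, 2.06% for Mmp12 and 0.412% for Atp6v0d2 (14.0%, 3.86% and 0.702% unthinned), at a median unthinned depth of 6270 UMIs. The members' shares lay far above this background. The rule fixed this in advance by choosing cells on these genes, so the gap supports nothing. In the G class the shares were 55.3% for Gpnmb and 9.32% for Mmp12, and in the M class 15.9% and 10.99%. Among thinned members, 739 had Gpnmb alone of the 3 genes, 305 had Mmp12 and Gpnmb, 97 had all 3, and 53 had none at this depth.

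Members held 54.0% of the Mmp12 UMIs of GFPhi, 62.5% of the Gpnmb UMIs and 62.7% of the Atp6v0d2 UMIs. Cells under the C1q minimum held 23.6%, 11.1% and 12.4% of them. The cycling C1q cells, which the rule leaves out, stood at 367 CPM of Mmp12 and 567 CPM of Gpnmb, so these transcripts were not limited to the cells the rule collects.

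**Figure D1:**
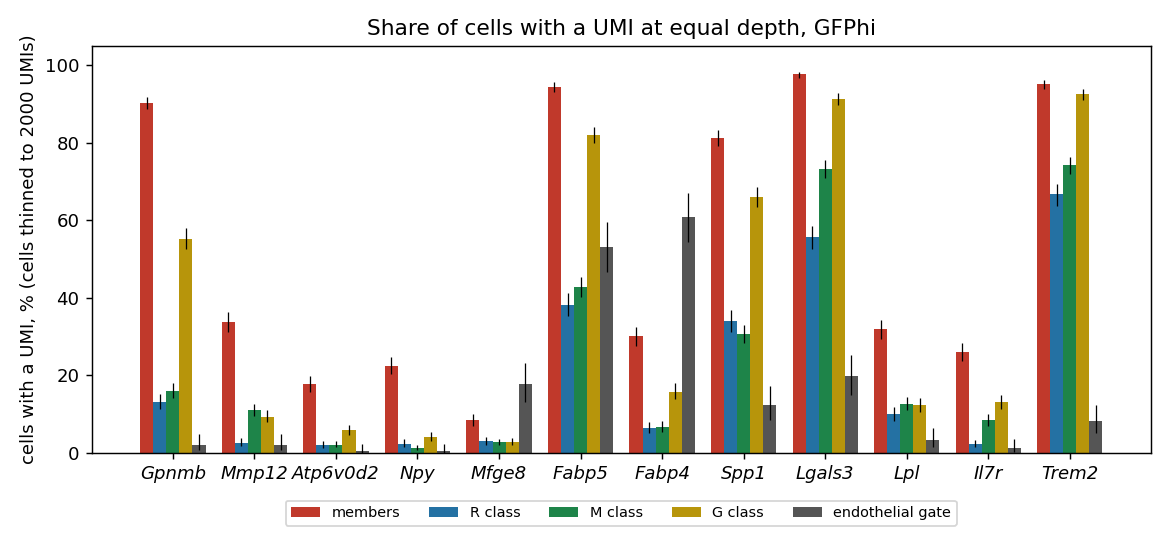
Share of cells of GFPhi with at least 1 UMI of a gene after each cell was thinned to 2000 UMIs, in percent, for members, the R, M and G classes and the endothelial gate; error bars are exact 95% intervals. Gpnmb reached 90.3% of members and 55.3% of the G class, and Fabp4 was more frequent in the endothelial gate than in members.

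The genes of the L score lie on different chromosomes in mm10, as annotated by GENCODE release M21. Mmp12 (ENSMUSG00000049723) is at chr9:7344381-7369499 on the plus strand, Gpnmb (ENSMUSG00000029816) at chr6:49036546-49070929 on the plus strand and Atp6v0d2 (ENSMUSG00000028238) at chr4:19876841-19922605 on the minus strand.

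The label was checked against macrophage and other markers. The C1q genes, which the rule used, were at 2730, 4613 and 3908 CPM of C1qa, C1qb and C1qc. Cd68, a lysosomal glycoprotein of macrophages, stood at 2273 CPM in members and 1084 CPM in the other macrophages of the rule. Lyz2, the macrophage lysozyme, stood at 13759 CPM in members and 11937 CPM in the others. Csf1r, the receptor for the macrophage growth factor CSF1, was lower at 201 CPM in members and 385 CPM in the others, and so was Adgre1, which encodes F4/80, at 185 CPM in members and 310 CPM in the others. Of the 9 macrophage markers, 1 was at least 1.5-fold higher in members and 3 at least 1.5-fold lower. By class Csf1r was at 292 CPM in the G class, 367 CPM in the M class and 541 CPM in the R class. Against the G class 1 of the 9 markers was higher and 1 lower.

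Markers of other cells were summed in the same way. Endothelial markers summed to 19.6 CPM in members, 26.9 CPM in other macrophages of the rule and 4664 CPM in the endothelial gate. Fibroblast markers summed to 241 CPM in members and 438 CPM in the others, and all 6 measured ones were at least 1.5-fold lower in members. By class they summed to 293 CPM in the R class, 240 CPM in the M class and 330 CPM in the G class. In the same order 2 of 6, 0 of 5 and 1 of 6 were at least 1.5-fold lower in members. Of all measured genes 32.9%, 18.4% and 6.81% were lower against these classes. At least 3 fibroblast UMIs were in 10.1% of members and 6.81% of the others, at the unequal depths given above. Monocyte markers summed to 156 CPM in members and 457 CPM in the others, and all 4 measured ones were lower, Ccr2, the chemokine receptor of inflammatory monocytes, at 11.03 CPM in members and 82.5 CPM in the others. By class the monocyte markers summed to 682.5 CPM in the R class, 528.9 CPM in the M class and 170.9 CPM in the G class. All 4 were lower against the R and M classes, and 0 of 4 against the G class. Lymphocyte markers summed to 228 CPM in members and 75.6 CPM in the others, and Il7r alone made up 221 CPM and 62.9 CPM of these sums. With 3 UMIs of the lymphocyte list, 446 members passed, and 9 did without Il7r. Neutrophil markers summed to 50.1 CPM in members and 40.8 CPM in the others. At least 3 UMIs of them were in 3.92% of members and 0.838% of the others. Their S100a8 was at 16.2 CPM in members and 5.23 CPM in the others.

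Each gene was then compared between the 1531 members, with 15597160 UMIs, and the other 5606 macrophages of the rule, with 37882534 UMIs. Genes with a mean of at least 10 CPM were measured, and a difference of 1.5-fold was the size used to count genes. Since the members were selected on expression in these very cells, the differences describe the class and support nothing. Of 6804 measured genes, 269 (3.95%) were at least 1.5-fold higher in members and 1320 (19.4%) at least 1.5-fold lower. The median log2 ratio of all measured genes was -0.16, and with that shift set to 0 the counts were 486 higher and 776 lower, so 38.5% and not 16.9% of the genes past 1.5-fold were higher. List medians below are to be read against that shift.

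The leading genes, beyond those of the rule, were a neuropeptide, a bridging molecule of phagocytosis, lipid-binding proteins and lysosomal proteases. Npy, the precursor of neuropeptide Y, had the largest ratio by the nearer bound. It stood at 269 CPM in members and 38.2 CPM in the G class, 14.3 CPM in the M class and 12.6 CPM in the R class. That is 12.3-fold over all other macrophages of the rule (11.5–13.3), above Mmp12 itself at 11.6-fold (11.1–12.1), with 829 CPM in members and 71.5 CPM in the others. Gpnmb was 8.06-fold and Atp6v0d2 7.56-fold higher, both by the rule's own choice. Npy was in few cells: 22.5% of thinned members had a UMI, against 4.06% of the G class and 0.412% of the endothelial gate (40.5%, 9.76% and 1.75% unthinned), and 10% of the members held 70.8% of the Npy UMIs of the class.

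Mfge8, a secreted protein that bridges phosphatidylserine on dying cells to integrins, was 7.96-fold higher (7.28–8.71), at 134 CPM in members and 16.8 CPM in the others. Its transcripts were more concentrated still, since 10% of the members held 90.5% of them and 22.3% of the members had any. After thinning, 8.32% of members and 17.7% of the endothelial gate had a Mfge8 UMI (22.3% and 46.7% unthinned), at 114 CPM in the gate. Summed endothelial markers stood at 19.6 CPM in members and 26.9 CPM in the other macrophages. These sums are over whole classes and not over the few members with Mfge8. What part endothelial RNA has in this gene was not tested.

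Genes of the lipid-associated signature were nearly all higher. Of 20 genes of a lipid-associated signature, 17 were at least 1.5-fold higher in members and none lower, with a median ratio of 2.15. Against the G class, the nearest by these genes, 12 of 20 were higher and 1 lower, with a median ratio of 1.73. There 2.43% of 6590 measured genes were higher and 6.81% lower. Against the R class 17 of 20 were higher and none lower, where 5.22% of all measured genes were higher and 32.9% lower. Against the M class 16 of 20 were higher and none lower, where 8.56% of all were higher and 18.4% lower. Counts of other lists against single classes, above and below, are to be read beside these shares.

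The fatty acid chaperones led the lipid genes. Fabp5 stood at 6265 CPM in members and 2965 CPM in the G class, 836 CPM in the M class and 887 CPM in the R class, 4.35-fold over all others (4.31–4.40). Fabp4 stood at 416 CPM in members and 100 CPM in the others, 4.16-fold higher (3.99–4.33), but it is also an endothelial gene and stood at 4041 CPM in the endothelial gate. Lpl, the lipase that releases fatty acids from lipoproteins, stood at 311 CPM in members and between 91.3 and 103 CPM in the R, M and G classes, 3.30-fold over all others (3.16–3.45). For Lpl the G class was no nearer than the R and M classes, unlike for Fabp5.

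Uptake and storage genes were mixed. Of 7 measured uptake genes 4 were higher and 1 lower than in all others, while against the R class 2 of 9 were higher and 4 lower, with a median ratio of 0.838. Cd36, a scavenger receptor for oxidised lipid and fatty acids, stood at 240 CPM in members and 166 CPM in the R class, 100 CPM in the G class and 35.3 CPM in the M class. The droplet coat gene Plin2 stood at 768 CPM in members and 340 CPM in the others. Hilpda, which inhibits the droplet lipase ATGL, stood at 263 CPM in members and 104 CPM in the others. Of 20 measured storage, hydrolysis and export genes, 9 were higher and 1 lower, and against the G class 4 were higher and 3 lower, with a median ratio of 1.09. Soat1, which esterifies cholesterol, Lipa, which frees it in lysosomes, and the exporter Abcg1 were 1.58-fold, 1.53-fold and 1.67-fold higher.

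The exporter Abca1 was at 177 CPM in members and 216 CPM in the others, a ratio of 0.820. Apoe, the apolipoprotein that takes up exported cholesterol, was at 15072 CPM in members and 27352 CPM in the G class. All genes of the storage, hydrolysis and export list summed to 26083 CPM in members and 34195 CPM in the G class. The list summed to 20773 CPM in the R class and 17716 CPM in the M class. Of 7 measured cholesterol synthesis genes none was higher and 3 were lower, among them Insig1 and Srebf2, which control the pathway. Ch25h, which makes 25-hydroxycholesterol, had the smallest ratio of the storage list, at 13.5 CPM in members and 48.1 CPM in the others.

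**Figure D2:**
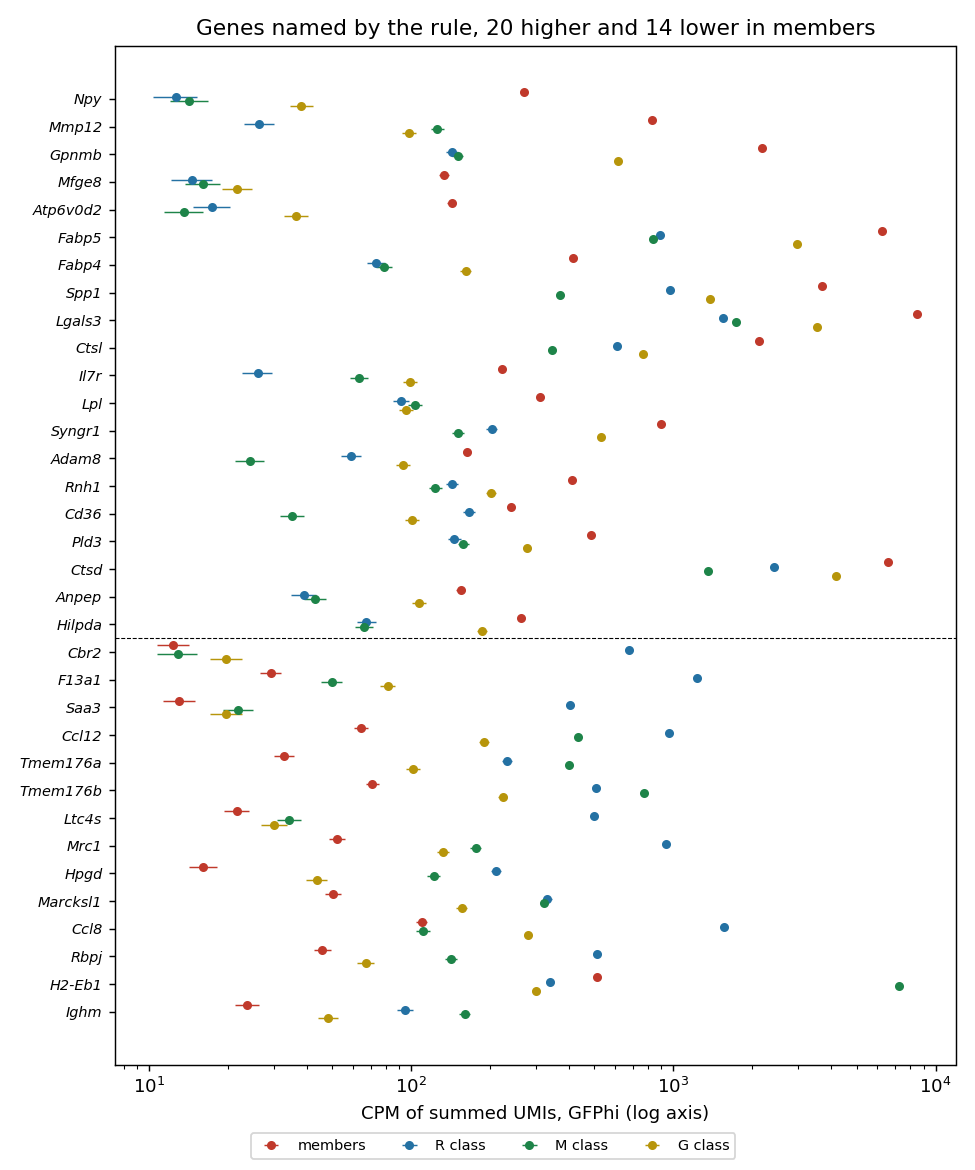
Levels of the 20 genes named as higher and of 14 of those named as lower, in CPM of summed UMIs on a log axis, for members and the R, M and G classes of GFPhi; error bars are exact 95% intervals. Npy, Mmp12 and Mfge8, at 269, 829 and 134 CPM in members, had the largest ratios to the nearest of the R, M and G classes.

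Matrix-related genes were higher in part. Spp1 encodes osteopontin, a secreted ligand of integrins and CD44, and Lgals3 encodes galectin-3, a lectin of phagocytes. Spp1 stood at 3696 CPM in members and 1378 CPM in the G class, 972 CPM in the R class and 370 CPM in the M class. Lgals3 stood at 8472 CPM in members and 3536 CPM in the G class, 1732 CPM in the M class and 1543 CPM in the R class. Of the osteopontin and matricellular list, 3 of 14 measured genes were higher and 5 lower, and its median log2 ratio of -0.16 became 0.00092 under the other scaling. Fn1, fibronectin, was lower at 57.5 CPM in members and 231 CPM in the others. The osteopontin receptors Cd44, Itgav and Itgb1 were at 1.10, 0.932 and 0.860 of the level in the others.

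Among proteases of the cell surface, Adam8, a membrane-bound metalloprotease, stood at 163 CPM in members and 93.0 CPM in the G class, 58.8 CPM in the R class and 24.3 CPM in the M class. Of 13 measured metalloproteinases, inhibitors and plasminogen genes outside the rule, 4 were higher and 2 lower. Timp2, an inhibitor of metalloproteinases, was 1.56-fold higher and Timp1 was at 0.573 of the level in the others. Mmp14, a membrane-type metalloproteinase, was at 102 CPM in members and 92.2 CPM in the others. Anpep, the aminopeptidase CD13, was 2.59-fold higher (2.45–2.75).

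Lysosomal genes were higher as a broad but shallow group against all others together, and less so against the G class. Of 35 genes for lysosomal enzymes and membrane proteins, 13 were at least 1.5-fold higher and 2 lower, with a median ratio of 1.31. With the shift of all genes set to 0 the counts were 16 and 2. Against the G class 7 were higher and 0 lower, with a median ratio of 1.21. Against the R class 14 were higher and 2 lower, and against the M class 18 were higher and 2 lower. Ctsl, a cysteine cathepsin, stood at 2116 CPM in members and 765 CPM in the G class, 611 CPM in the R class and 345 CPM in the M class. Ctsd, the aspartic cathepsin, stood at 6566 CPM in members and 4166 CPM in the G class, 2421 CPM in the R class and 1357 CPM in the M class. Ctsk, the collagen-cleaving cathepsin of osteoclasts, was at 18.2 CPM in members and 4.14 CPM in the others. Pld3, a lysosomal nuclease, was 2.61-fold higher (2.52–2.69). The 2 lower genes were Ctsc, which activates serine proteases of granules, at 342 CPM in members and 660 CPM in the others, and Naaa.

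The V-ATPase genes outside the rule followed with small ratios. Of 17, 4 were at least 1.5-fold higher and none lower, 15 had a ratio above 1, and the median ratio was 1.40. With the shift of all genes set to 0, 10 of 17 were past 1.5-fold. Atp6v1c1, Atp6v0e, Atp6v0c and Atp6v1g1 were 1.74-fold, 1.64-fold, 1.62-fold and 1.51-fold higher. Against the G class none of the 17 was past 1.5-fold in either direction. Atp6v0d2 helped to choose the members and cannot be set against the other subunits. The transcription factors that control lysosomal genes in mammals were near the others' level, Tfeb at 25.7 CPM in members and 23.8 CPM in the others, Mitf at 87.4 CPM in members and 97.7 CPM in the others, and Tfe3 at 30.1 CPM in members and 38.2 CPM in the others.

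Other osteoclast genes were partly shared. Acp5, the acid phosphatase of osteoclasts, and Clcn7, a lysosomal chloride transporter, were 1.77-fold and 1.64-fold higher, and the receptor Tnfrsf11a (RANK) and the factor Nfatc1 were at 0.751 and 0.657 of the level in the others. Of 7 measured genes 3 were higher and 1 lower. Dcstamp, Ocstamp, Calcr and Oscar were under the minimum of 10 CPM.

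Promoters of genes from these groups are shown for their sequence motifs. The 250 bases before the transcription start are from RefSeq for GRCm38.p6, written 5′ to 3′ in the direction of the gene, with matches on either strand in capitals. The motifs were TCACGTG, the core of the element that TFEB-type factors bind, TCATGTG, the related site of MITF, TGANTCA, the site of AP-1 factors, and GAGGAAGT, a site of the myeloid factor PU.1. Mmp12 has 2 starts in the table, and Atp6v0d2, Fabp5 and Lpl are not in it. Only promoters with a match before the start are printed, and not all of those. The promoters of Npy, Mfge8, Lgals3 and Ctsl and the downstream start of Spp1 held none of these motifs. In Gpnmb the only match lay after the start.
Mmp12 upstream start, chr9:7344147-7344396, plus strand, GAGGAAGT on the reverse strand: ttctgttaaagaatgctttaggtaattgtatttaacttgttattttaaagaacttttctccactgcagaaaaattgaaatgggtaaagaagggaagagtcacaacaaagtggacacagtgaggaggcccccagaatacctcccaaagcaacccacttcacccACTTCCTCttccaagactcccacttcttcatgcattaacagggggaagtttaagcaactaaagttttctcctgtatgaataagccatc
Mmp12 downstream start, chr9:7347124-7347373, plus strand, TCATGTG on the reverse strand and TGANTCA: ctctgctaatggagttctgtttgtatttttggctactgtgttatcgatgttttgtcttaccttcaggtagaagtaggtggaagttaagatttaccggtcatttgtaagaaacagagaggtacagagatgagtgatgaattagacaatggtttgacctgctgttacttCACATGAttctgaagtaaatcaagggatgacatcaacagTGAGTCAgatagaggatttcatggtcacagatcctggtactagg
Spp1 upstream start, chr5:104434861-104435110, plus strand, GAGGAAGT: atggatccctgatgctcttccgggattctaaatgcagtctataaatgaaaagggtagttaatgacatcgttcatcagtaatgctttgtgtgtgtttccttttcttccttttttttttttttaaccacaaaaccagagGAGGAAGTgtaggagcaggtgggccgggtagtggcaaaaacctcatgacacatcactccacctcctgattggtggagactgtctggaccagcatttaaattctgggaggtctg
Ctsd, chr7:142387828-142388077, minus strand, TCACGTG on the reverse strand and as an overlapping pair on both strands: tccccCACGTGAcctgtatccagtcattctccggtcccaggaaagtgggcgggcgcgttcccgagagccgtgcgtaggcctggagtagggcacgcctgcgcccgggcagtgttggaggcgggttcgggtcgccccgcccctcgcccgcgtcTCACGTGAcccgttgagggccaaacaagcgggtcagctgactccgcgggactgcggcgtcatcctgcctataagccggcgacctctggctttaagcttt
Atp6v0b, chr4:117887330-117887579, minus strand, TCACGTG at 2 places: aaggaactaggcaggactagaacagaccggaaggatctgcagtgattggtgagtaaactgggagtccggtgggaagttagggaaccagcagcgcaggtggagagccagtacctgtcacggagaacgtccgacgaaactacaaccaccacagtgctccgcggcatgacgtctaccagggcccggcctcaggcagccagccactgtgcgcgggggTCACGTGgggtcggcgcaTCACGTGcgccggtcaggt
Atp6v1a, chr16:44139260-44139509, minus strand, TCACGTG as an overlapping pair on both strands: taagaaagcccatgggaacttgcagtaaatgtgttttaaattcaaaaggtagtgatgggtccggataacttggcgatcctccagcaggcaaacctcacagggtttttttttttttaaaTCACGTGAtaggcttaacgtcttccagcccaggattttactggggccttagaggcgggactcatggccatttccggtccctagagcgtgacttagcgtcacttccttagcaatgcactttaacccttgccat

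Over the whole window of 250 bases before to 50 after the start, TCACGTG was in the promoters of 4 of the 12 V-ATPase genes found in the table (33.3%), Atp6v0d2 being among the genes looked up. It was in 6 of 29 lysosomal genes (20.7%) and in 4.29% of all 27025 genes. TCATGTG was in 1 of the 12 V-ATPase genes, in 6 of 29 lysosomal genes (20.7%) and in 4.31% of all genes. Among the 20 genes named as higher in members, 16 were in the table. Of these, 4 (Mmp12, Gpnmb, Rnh1 and Hilpda) held TGANTCA (25%, against 8.97% of all genes), 2 (Mmp12 and Spp1) held GAGGAAGT (12.5%, against 3.69%), 2 (Ctsd and Rnh1) held TCACGTG (12.5%) and 1 (Mmp12) held TCATGTG (6.25%). Of the 15 genes named as lower, 13 were in the table, and 1, F13a1, held GAGGAAGT and none held any of the others. Matches in so few promoters are a description of letters and say nothing of binding.

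Clearance genes went both ways. Of 18 measured efferocytosis genes 6 were higher and 5 lower, and the median log2 ratio of -0.06 became 0.10 with the shift of all genes set to 0. By class 4 were higher and 1 lower against the G class, 8 higher and 4 lower against the M class, and 5 higher and 6 lower against the R class. Beside Mfge8 and Cd36, the ones higher than in all others together were Anxa1, Cd300lf, Trem2 and Lrp1. Trem2, the lipid-sensing receptor after which the state is often named, was at 1717 CPM in members and 1573 CPM in the G class, 883 CPM in the M class and 817 CPM in the R class, 1.53-fold over all others (1.503–1.549). After thinning, 95.1% of members and 92.6% of the G class had a Trem2 UMI, against 8.23% of the endothelial gate (96.5%, 96.9% and 17.9% unthinned), so Trem2 barely separated members from the G class. Cd9, a tetraspanin, was at 588 CPM in members and 335 CPM in the G class. The TAM receptors Mertk and Axl were at 0.799 and 0.518 of the level in the others, and their ligand Gas6 was at 52.2 CPM in members and 289 CPM in the R class.

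Il7r, the receptor chain for interleukin 7 and best known from lymphocytes, was 3.52-fold higher (3.34–3.71), at 221 CPM in members and 99.2 CPM in the G class, 63.1 CPM in the M class and 26.0 CPM in the R class. After thinning, 26.0% of members and 1.24% of the endothelial gate had a UMI (57.4% and 3.16% unthinned). Its log2 ratio was 1.82, and 1.05 once cells with 3 UMIs of another cell type's list were left out, a step that removes cells by Il7r itself. Il1rn, the interleukin 1 receptor antagonist, was 2.58-fold higher at 65.8 CPM in members and 25.5 CPM in the others. Il1b was lower than in the M class, at 359 CPM in members and 1429 CPM in that class.

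Chemokines and their receptors were mostly lower. Of 17 measured chemokines none was at least 1.5-fold higher and 13 were lower, with a median ratio of 0.549, and 11 were lower with the shift of all genes set to 0. By class 3 of 16 were higher and 6 lower against the G class, 1 of 16 higher and 7 lower against the M class, and 2 of 18 higher and 9 lower against the R class. Ccl8, a chemokine for monocytes and lymphocytes and the one named in the study's title, stood at 110 CPM in members and 279 CPM in the G class, 111 CPM in the M class and 1566 CPM in the R class, 4.62-fold lower than in all others together (4.40–4.86). In summed Ccl8 members and the M class differed by less than counting error. After thinning, 12.7% of members had a Ccl8 UMI (11.03–14.59), against 17.7% of the G class, 6.88% of the M class (5.64–8.29), 42.1% of the R class and 2.06% of the endothelial gate (25.9%, 29.6%, 13.2%, 54.1% and 6.32% unthinned). Ccl12, a monocyte attractant, stood at 64.6 CPM in members and 189 CPM in the G class, 433 CPM in the M class and 959 CPM in the R class, so for it members were the lowest of the 4. Cxcl1 was at 384 CPM in members and 366 CPM in the others, and Cxcl16 at 468 CPM in members and 474 CPM in the others.

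Of 15 measured chemokine and cytokine receptors none was higher and 9 were lower. Cx3cr1, the fractalkine receptor, stood at 130 CPM in members and 235 CPM in the G class, 576 CPM in the M class and 270 CPM in the R class. Csf2ra, a receptor chain for GM-CSF, was at 138 CPM in members and 110 CPM in the others. Of 14 immediate-early and heat shock genes that rise when tissue is dissociated, none was higher and 11 were lower, Fos at 1601 CPM in members and 2412 CPM in the others. Handling during dissociation and state cannot be told apart for these genes, and with the shift of all genes set to 0 the number lower was 5.

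The leading lower genes by the same rule were high in the R class, the M class or both. Cbr2, a carbonyl reductase of the R score, was 13.5-fold lower, F13a1 11.6-fold, Saa3, an acute-phase protein, 8.91-fold and Ccl12 7.42-fold. For Saa3 the log2 ratio was -3.16, and -1.46 when per-cell values were averaged in place of summing UMIs. The paired membrane genes Tmem176a and Tmem176b were 7.18-fold and 6.83-fold lower, and highest in the M class at 401 and 772 CPM. Rbpj, the transcription factor of Notch signalling, was 4.40-fold lower, at 45.8 CPM in members and 202 CPM in the others.

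Genes of resident macrophages, of antigen presentation, of the interferon response and of complement were lower against all others together, but not against every class. The R and M classes were chosen by genes of the same kinds and stand among the others. Of 16 measured resident genes outside the rule, none was higher and 12 were lower, while against the M class 5 of 12 were higher and 5 lower. Lyve1, a hyaluronan receptor, was at 1.15 CPM in members and 348 CPM in the R class, and F13a1, a coagulation factor, at 29.1 CPM in members and 1232 CPM in the R class. Mrc1, the mannose receptor, was at 52.2 CPM in members and 132 CPM in the G class, 176 CPM in the M class and 936 CPM in the R class. Igf1, a growth factor often given with this group, was at 589 CPM in members and 636 CPM in the G class, 201 CPM in the M class and 421 CPM in the R class.

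Folr2, a gene of the R score, showed an exception among them. It stood at 86.2 CPM in members and 40.0 CPM in the G class and 17.1 CPM in the M class, with 738 CPM in the R class, while Cd163 was at 0.705 CPM in members and 163 CPM in the R class. Arg1, arginase, was at 21.4 CPM in members and 6.88 CPM in the G class, 18.1 CPM in the M class and 246 CPM in the R class. Of 10 measured alternative activation genes none was higher and 5 were lower. By class 1 of 9 was higher and 6 lower against the R class, 1 of 9 higher and 4 lower against the M class. Against the G class 2 of 9 were higher and 3 lower.

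Of 9 antigen presentation genes outside the rule, 7 were lower and 1, the protease Ctss, was higher. Against the M class 7 of 9 were lower. Against the R class 3 of 8 were lower, with a median ratio of 0.921, and against the G class 2 of 7, with a median ratio of 1.25. Of all measured genes 18.4%, 32.9% and 6.81% were lower against the M, R and G classes. The count against the R class was near the share of all genes. Cd74, the invariant chain, was at 1278 CPM in members and 889 CPM in the G class, 971 CPM in the R class and 14110.2 CPM in the M class. Of 12 interferon response genes none was higher and 8 were lower, with a median ratio of 0.539. Against the G class 1 of 11 was lower, with a median ratio of 0.992. Of 11 complement genes 1 was higher, Itgax, and 8 were lower, with a median ratio of 0.539. Against the G class 2 of 10 were higher and 3 lower.

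**Figure D3:**
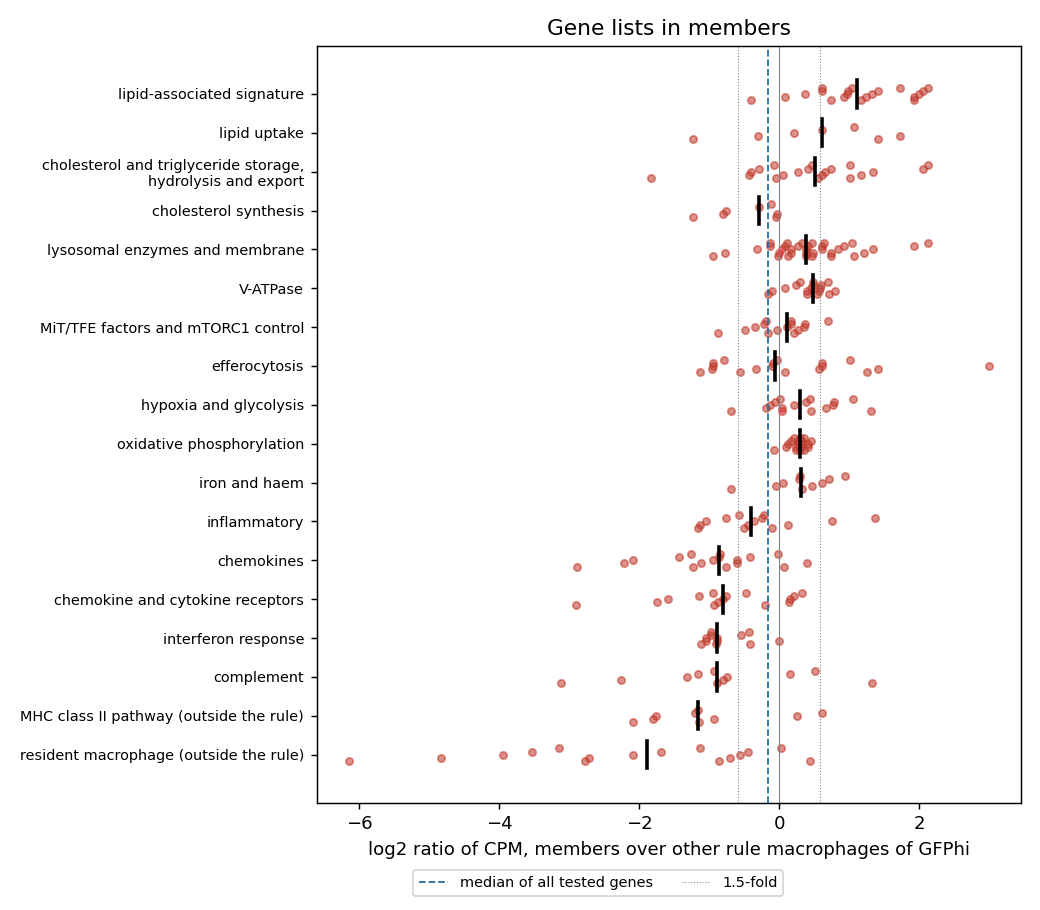
Log2 ratios of CPM in members over the other macrophages of the rule in GFPhi, 1 point per measured gene of each list, with the list's median as a black bar. The dashed line is the median of all measured genes at -0.16 and the dotted lines mark 1.5-fold; the lipid-associated signature lay to the right and the resident list furthest to the left.

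Energy and iron genes were shifted upward by small amounts against all others together. Of 16 measured hypoxia and glycolysis genes 5 were higher and 1, the hypoxia factor Hif1a, was lower. Pgam1, Pkm, Gapdh, Pgk1 and Ldha were 2.49-fold, 2.07-fold, 1.72-fold, 1.71-fold and 1.58-fold higher, while the glucose transporter Slc2a1 and the kinase Hk2 were at 1.16 and 0.959 of the level in the others. Aldoa, aldolase, has a pair of identifiers in the files and was left out of the list, and the one of them past 1.5-fold over every class stood at 618 CPM in members, 404 CPM in the G class, 260.2 CPM in the M class and 304 CPM in the R class. Hif1a stood at 35.1 CPM in members and 56.3 CPM in the others, and with the shift of all genes set to 0 no gene of the list was past 1.5-fold lower. Of 19 nuclear genes of oxidative phosphorylation none was past 1.5-fold, and 18 had a ratio above 1, with a median of 1.23. Ftl1 and Fth1, the ferritin chains, were 1.93-fold and 1.64-fold higher. The iron exporter Slc40a1 was lower than in the G class, at 16.2 CPM in members and 44.9 CPM in that class. Of the iron and haem list, 7 of 9 genes were higher and none lower against the M class. Against the R class 3 of 12 were higher and 3 lower, and against the G class 0 of 10 higher and 1 lower. The median ratios were 1.804, 1.055 and 1.046 in that order.

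In summed UMIs the reporter was lower in members than in the other macrophages, and the p16 transcript was lower than in all others together. By share of cells the p16 transcript was not lower than in the M and G classes. The mGFP transcript was at 25.1 CPM in members and 33.9 CPM in the other macrophages of the rule, a ratio of 0.740 (0.659–0.829), and between 33.1 and 33.5 CPM in the R, M and G classes. After thinning, 5.69% of members had a mGFP UMI (4.54–7.03). In the R, M and G classes 6.47% (5.08–8.09), 7.28% (6.01–8.725) and 7.37% (6.02–8.91) did, with overlapping intervals. Unthinned, at unequal depth, the shares were 21.5% of members and 19.85%, 17.5% and 20.7% of the R, M and G classes. Over all kept cells mGFP was at 33.8 CPM in GFPhi and 22.8 CPM in GFPlo, so members lay between the libraries' levels. Cdkn2a over all kept cells was at 2.35 CPM in GFPhi and 4.71 CPM in GFPlo. Cdkn2a, which encodes p16, had 4 UMIs in members and 50 UMIs in the others, that is 0.256 CPM and 1.32 CPM. It was in 0 of 1406 thinned members, which by the exact interval allows up to 0.262% of cells with a UMI at this depth. After thinning, 0.546% of the R class and 0% of the M and G classes had a Cdkn2a UMI. Unthinned, the shares were 0.196% of members, 1.44% of the R class, 0.127% of the M class and 0% of the G class. Of the 4 UMIs, all lay in members whose second score was R, at 0.969 CPM there. Cdkn1a, the p53-induced inhibitor p21, was at 380 CPM in members and between 672 and 898 CPM in the R, M and G classes. Of 7 measured p16 and p53 genes none was higher and 3 were lower.

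Over all genes, 86 of 6804 (1.26%) were at least 1.5-fold higher in members than in each of the R, M and G classes, and 305 (4.48%) were lower than in each. By the smallest of the 3 ratios Npy came first at 7.06, then Mmp12 at 6.59, Mfge8 at 6.16, Atp6v0d2 at 3.92, Gpnmb at 3.53 and Lpl at 3.01. Npy and Mfge8, which the rule did not use, stood further above the nearest class than Gpnmb and Atp6v0d2, which it did.

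The neighbours of each cell were then taken with all rule genes left out, in 30 principal components of 2000 variable genes. Of the 15 nearest cells to a member, 57.4% on average were members, who were 21.5% of the cells. A further 22.6% were of the G class, 4.95% of the M class and 3.81% of the R class. For 59.8% of members most neighbours were members. The G class was the least closed, with 38.7% of its neighbours its own and 28.0% members, while the R and M classes had 66.4% and 61.3% of their own. Since other genes vary with the rule genes in these same cells, this describes how the members lie and is no test of the class.

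**Figure D4:**
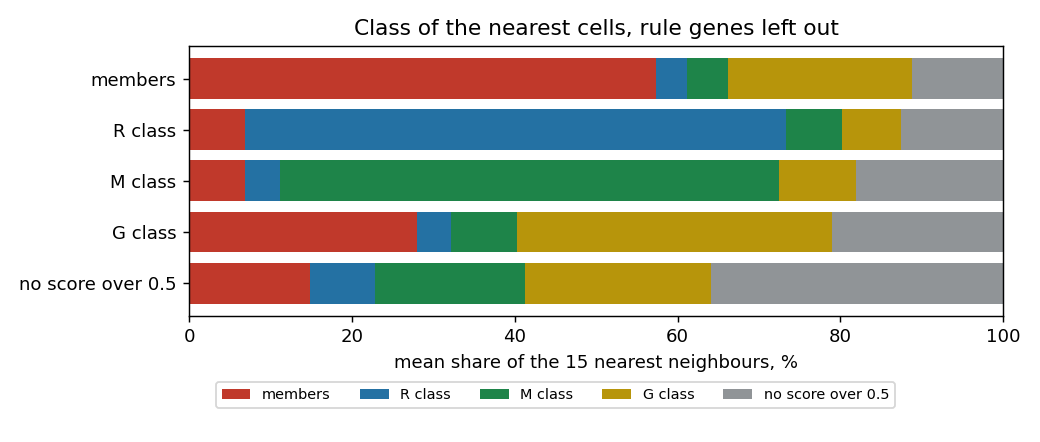
Mean make-up by class of the 15 nearest neighbours of each cell of GFPhi, in percent, for members, the R, M and G classes and cells with no score over 0.5, with the rule genes left out. Members had 57.4% members and 22.6% G class cells beside them.

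Members differed among themselves by their second score. G came second in 791 members (51.7%), R in 382 and M in 358, and 748 members (48.9%) had no other score above 0.5. Mmp12 was highest where M came second, at 1613 CPM (1572–1654), against 634 CPM where G and 504 CPM where R came second. Mmp12 and Gpnmb are part of the L score, which the rule sets above the second score. The median L score was 1.48 with M second, 1.32 with G and 1.34 with R. The levels of these genes by second score are therefore partly set by the rule. Gpnmb varied little, at 1956, 2200 and 2324 CPM in the same order. Lpl and Il7r were also highest where M came second, at 456 and 345 CPM. They were at 249.1 and 185 CPM where G did, and 301 and 181 CPM where R did. Unlike Mmp12, Lpl was thus higher with R second than with G, and Il7r differed little between these.

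Spp1 and Ctsl were highest where R came second and lowest where M did. Spp1 was at 5394 CPM where R came second, 3528 CPM where G did and 2134 CPM where M did, and Ctsl at 3216, 1915 and 1305 CPM. Cd36 was also highest with R, at 324 CPM, against 214 CPM with G and 200 CPM with M. Igf1 was at 677 CPM with R, 684 CPM with G and 284 CPM with M. Npy hardly varied, at 287, 252 and 286 CPM with R, G and M. Median depth was similar, at 10454, 9268 and 10353 UMIs with R, G and M. These sets are cells of 1 library, and the second scores are themselves made of correlated genes, so no test applies.

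**Figure D5:**
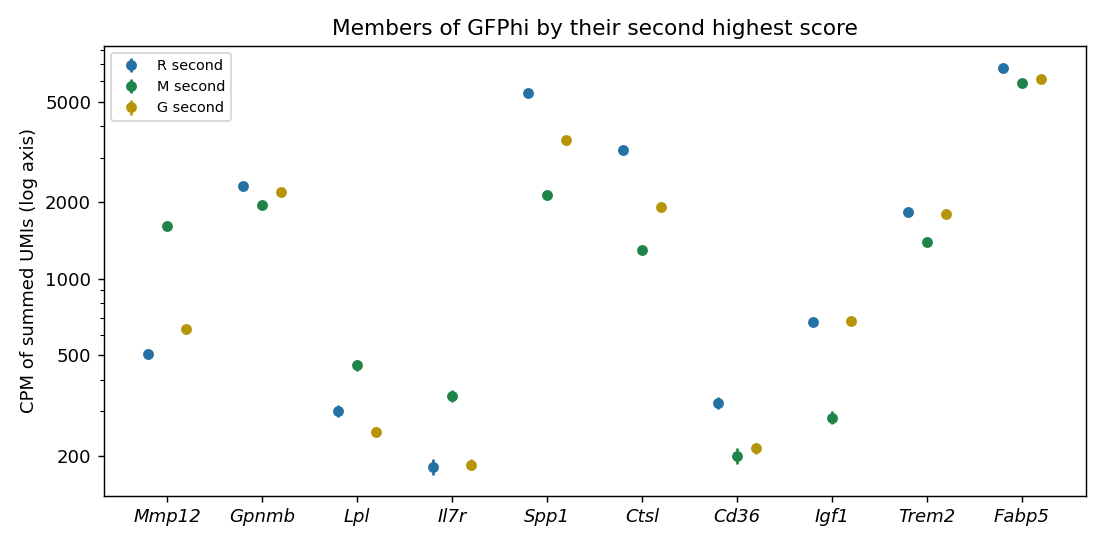
Levels of 10 genes in members of GFPhi split by which score came second, in CPM of summed UMIs on a log axis; error bars are exact 95% intervals. Mmp12, Lpl and Il7r were highest where M came second, and Spp1, Ctsl and Cd36 where R came second. Mmp12 and Gpnmb are genes of the L score, which the rule sets above the second score.

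Members were also split by Mmp12 itself. Of the thinned members, 474 had a Mmp12 UMI and 932 had none. Cd74 was at 2417 CPM in those with Mmp12 and 520 CPM in those without, Lgals3 at 11574 CPM with and 6458 CPM without, Lpl at 463 CPM with and 212 CPM without, and Npy at 382 CPM with and 197 CPM without. Apoe was at 8119 CPM with Mmp12 and 19783 CPM without. Spp1 did not separate them, at 3714 CPM with and 3706 CPM without, and Gpnmb was at 1993 CPM with and 2309 CPM without. Ctsl was at 2201 CPM with and 2079 CPM without, and Cd36 at 325 CPM with and 185 CPM without, so these genes and Npy did not follow the order seen by second score. Members with little or no Mmp12 pass the rule mainly through the other genes of the L score, so nothing is read from their Gpnmb. A member with a high M score needs a still higher L score, so nothing is read from the split of Cd74 either.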

How the data were processed

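The authors deposited filtered gene-by-barcode matrices of UMI counts, 1 per library, and the values are raw counts, as whole numbers in the deposited matrices show. The labels' protocols name a SeekOne 3′ kit while another field names 10x. The submitters' processing notes give the mm10 build, and name no aligner or counter (not given in the sources used here). Cells were kept from 300 genes and 500 UMIs upward, with mitochondrial UMIs no more than 20%. Scores followed the stated rule, UMIs were summed per class, and levels are CPM of those sums. Intervals are exact Poisson for levels, Clopper-Pearson for shares and conditional binomial for ratios, all at 95%. Genes with a mean of both groups of at least 10 CPM were measured. The interval code was tested on simulated data.

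The text names the rule genes, the reporter, Cdkn2a and a fixed group of lipid-associated and related genes. It also names the 20 genes higher and 15 lower with the largest ratio by the nearer bound, with a mean of at least 50 CPM and at least 20 UMIs, passing over mitochondrial, ribosomal, haemoglobin, Gm and Rik genes. Some items the rule selects are not reported here. From each list the extremes and examples of a role are named. Members and lists were chosen with earlier results of these data known.

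No doublet caller was run and no doublets were removed. At least 3 UMIs of another cell type's list were in 550 members (175 without Il7r) and in 683 other macrophages of the rule (432 without Il7r), and cells with them were left out as an alternative. Cells of the endothelial gate were outside the rule with at least 10 UMIs of Pecam1, Cdh5 and Egfl7 per 10000. Of 32285 Ensembl identifiers, 32158 were found in GENCODE release M21. Python 3.11.15, numpy 2.4.6, scipy 1.17.1, pandas 2.3.3, scikit-learn 1.9.0, scanpy 1.11.5 and matplotlib 3.10.9 were used.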

Additional observations from a re-analysis of the deposited data

How the results depend on the processing

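No paired analysis was possible because each fraction gave 1 library, and for the same reason no replicate could be left out. The share of members was 15.1% of kept GFPhi cells and 21.5% of its macrophages of the rule. With an L minimum of 0 these were 17.25% and 24.48%, with a minimum of 1 they were 11.07% and 15.71%, with L above 0.5 whatever the other scores 23.57% and 33.43%, and with Gpnmb left out of L 10.63% and 15.08%. The share of kept cells was 16.23% and 13.13% at C1q minimums of 15 and 60 per 10000, and 15.90% among cells with at least 2000 UMIs. The share of macrophages was 19.76% with scores after thinning, and 70.08% of the members were shared with that choice, against 49.74% without Gpnmb in L. Genes at least 1.5-fold higher and lower numbered 486 and 776 under median-of-ratios scaling, 150 and 364 at a mean of at least 50 CPM, and 604 and 4113 with no minimum beyond 20 UMIs. No value named in the text for a leading gene changed its direction, and 7 comparisons of a named gene with an alternative moved beyond the margin, while 413 did not. Among these, Mmp12 had a log2 ratio of 2.85 with only members that had no other score above 0.5, a choice made after seeing the data. The list medians of osteopontin, efferocytosis, growth factor and metalloproteinase genes changed sign under at least 1 alternative. The causes were not tested.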
